A study of Homo sapiens with 12 samples.

Results

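The baseline transcriptome of MV4-11 cells was described from the 3 libraries of vehicle-treated cells, out of 12 libraries in the series. MV4-11 is a human acute myeloid leukaemia (AML) cell line, known for a fusion of KMT2A with AFF1 and for an internal tandem duplication in FLT3. The cells received 0.1% DMSO for 6 h, the solvent in which the series' CDK4/6 inhibitor and its CDK6-directed conjugates were given, and the 9 libraries of cells given those compounds were not used. All 3 libraries therefore share 1 genotype, 1 treatment and 1 time, and a single cell line is the only model. Polyadenylated RNA was sequenced and counted per gene, and the labels do not say whether the replicates were separate cultures, so the spread given here may be technical. Library totals were 19497886, 25539858 and 18764307 counts for replicates 1, 2 and 3.

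KMT2A is a histone methyltransferase that keeps HOX genes active during development. Its leukaemic fusions recruit elongation factors and DOT1L to target genes, among which HOXA9, MEIS1 and FLT3 are well known in AML. FLT3 is a receptor tyrosine kinase of blood progenitors, and the internal tandem duplication makes it signal without its ligand, through STAT5, RAS-ERK and PI3K-AKT. Promoters of widely used genes lie mostly in CpG islands, stretches in which the dinucleotide CG is not depleted, whereas many genes restricted to 1 cell type start outside such islands.

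Levels are given as CPM (counts per 1000000 of the effective library size), with the mean ± SD over the 3 libraries. A gene was called expressed when it reached 1 CPM in every library. CPM per kb is the level divided by the length of a gene's merged exons. Levels of different genes given in CPM or in counts, also where they stand side by side, are not corrected for length. On the rule of 1 CPM in every library 12014 of 58051 genes (20.7%) were expressed. Among protein-coding genes 10837 of 19737 were expressed (54.9%), 3548 had counts below the threshold in at least 1 library and 5352 had no count in any. The 54.9% is the share to set beside each count of expressed list members given below. A gene without a count could still have had a level of up to 0.0471 CPM, the value of 3 counts over the 3 libraries together, which covers counting error only.

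The stretches of 250 bases before the annotated start sites of 6 genes are shown because they carry the differences in CG content described further on. They are RefSeq sequences (build GRCh38.p14), written 5′ to 3′ on the gene's strand, with every CG in capitals. AZU1 (chr19:827587-827836, plus strand), PRTN3 (chr19:840749-840998, plus strand) and CTSG (chr14:24576251-24576500, minus strand) encode granule proteases or their inactive relative. FLT3 (chr13:28100577-28100826, minus strand) encodes the mutated receptor. HOXA7 (chr7:27156676-27156925, minus strand) and HOXA9 (chr7:27165538-27165787, minus strand) are neighbours in the HOXA cluster, the former silent and the latter expressed.
AZU1: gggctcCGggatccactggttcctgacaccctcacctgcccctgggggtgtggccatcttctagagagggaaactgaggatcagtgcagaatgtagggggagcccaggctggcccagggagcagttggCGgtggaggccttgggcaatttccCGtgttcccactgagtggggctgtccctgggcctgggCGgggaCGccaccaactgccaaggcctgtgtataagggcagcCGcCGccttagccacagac
PRTN3: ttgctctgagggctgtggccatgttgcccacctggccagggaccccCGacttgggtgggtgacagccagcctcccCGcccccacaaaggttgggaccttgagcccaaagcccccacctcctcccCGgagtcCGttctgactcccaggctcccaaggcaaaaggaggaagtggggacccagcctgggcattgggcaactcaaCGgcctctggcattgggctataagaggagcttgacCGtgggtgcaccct
CTSG: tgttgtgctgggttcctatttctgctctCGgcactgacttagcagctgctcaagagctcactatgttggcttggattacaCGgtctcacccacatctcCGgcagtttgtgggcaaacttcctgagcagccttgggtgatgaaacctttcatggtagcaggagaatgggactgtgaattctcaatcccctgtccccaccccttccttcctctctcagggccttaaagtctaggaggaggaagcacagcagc
FLT3: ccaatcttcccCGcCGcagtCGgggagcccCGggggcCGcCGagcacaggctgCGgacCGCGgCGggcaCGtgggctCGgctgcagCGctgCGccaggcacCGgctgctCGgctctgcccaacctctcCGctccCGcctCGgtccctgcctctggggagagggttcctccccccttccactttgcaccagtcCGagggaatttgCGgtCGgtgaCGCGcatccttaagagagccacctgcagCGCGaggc
HOXA7: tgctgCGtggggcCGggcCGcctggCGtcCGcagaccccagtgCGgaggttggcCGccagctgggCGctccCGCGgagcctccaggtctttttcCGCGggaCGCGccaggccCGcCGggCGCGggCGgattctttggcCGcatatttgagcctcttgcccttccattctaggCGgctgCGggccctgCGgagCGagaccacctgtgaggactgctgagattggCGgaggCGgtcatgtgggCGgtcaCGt
HOXA9: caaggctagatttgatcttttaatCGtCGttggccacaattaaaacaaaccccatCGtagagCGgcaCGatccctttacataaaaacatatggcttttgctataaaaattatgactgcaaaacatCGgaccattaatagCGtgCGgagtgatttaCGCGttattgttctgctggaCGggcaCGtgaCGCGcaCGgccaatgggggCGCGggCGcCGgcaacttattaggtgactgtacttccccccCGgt
The 3 granule stretches held 7, 6 and 3 CG dinucleotides, against 26 for FLT3, 28 for HOXA7 and 20 for HOXA9.

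The defining markers of a myeloid line were examined first. CD33, a sialic acid receptor of myeloid cells, measured 175, 166 and 165 CPM in replicates 1 to 3. SPI1, the myeloid master regulator PU.1, measured 298, 332 and 294 CPM. LYZ, lysozyme, measured 661, 618 and 650 CPM, and PTPRC, the pan-leukocyte antigen CD45, measured 88.3, 83.4 and 94.8 CPM. All of these were well above the threshold in every library. MPO, the myeloperoxidase that marks the granulocytic line, was low at 6.34, 7.89 and 8.17 CPM. CD14, the endotoxin co-receptor that defines mature monocytes, was below threshold in every library, with 0.358, 0.118 and 0.212 CPM from 7, 3 and 4 counts.

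Counts were spread over many genes. Between 947 and 963 genes held 50% of the counts of a library, and the 100 genes with most counts held 17.9% ± 0.114 (SD, n = 3). Of the 30 genes with the highest CPM, 7 were mitochondrially encoded and 5 encoded ribosomal proteins. Among the others were EEF2, the translocase of translation elongation, with 5923, 6605 and 5831 CPM, HSPA8, the constitutive HSC70 chaperone, with 5156, 5256 and 5030 CPM, and ACTB, cytoplasmic actin, with 4635, 5019 and 4601 CPM. These 3 genes were thus among the largest contributors to every library. A pair of leukocyte genes stood in the same 30. SRGN, serglycin, the proteoglycan that packs granule enzymes, measured 3403, 3373 and 3289 CPM, and ITGAL, the alpha chain of the integrin LFA-1, measured 2520, 2469 and 2556 CPM.

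Divided by length, 13 of the 30 highest genes were mitochondrial and 6 encoded ribosomal proteins. MT-CO2, a cytochrome oxidase subunit, led with 4576 CPM per kb, followed by MT-CO3 with 4195 and by FTL, the ferritin light chain, with 3617. SRGN was the 6th protein-coding gene on this scale, with 2750 ± 48.3 CPM per kb. All 13 mitochondrial protein genes were expressed, as were 48 of 52 genes with RPL symbols and 40 of 43 with RPS symbols. These symbols were taken by their start, so the counts also hold genes that do not encode ribosomal proteins. A few ubiquitous genes with many near-identical copies in the genome were low in this table, for example RPS27 at 1.13, 1.85 and 0.902 CPM, RPS10 at 1.38, 1.58 and 1.75 CPM and RPL7 at 5.47, 5.24 and 6.37 CPM. EEF1A1, a translation factor of the same kind that was picked after its value was seen, measured 701, 690 and 684 CPM. Reads that match several copies can be lost or split in counting, so these levels are uncertain, and this was not tested.

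Of 20 genes of granulocytes and their granules, 10 were expressed (50%, near the 54.9% of all protein-coding genes) and 7 had no count. AZU1, the antimicrobial protein azurocidin, measured 1018, 1043 and 1006 CPM, and PRTN3, proteinase 3, measured 602, 733 and 623 CPM. CTSG, cathepsin G, measured 253, 275 and 238 CPM, and ELANE, neutrophil elastase, measured 77.6, 92.3 and 80.9 CPM. Replicate 2 was the highest of the 3 for each of these 4 genes. AZU1 (chr19:825097-832018), PRTN3 (chr19:840960-848175) and ELANE (chr19:851014-856247) are adjacent protease-family genes, and per length AZU1 and PRTN3 were alike at 573 ± 10.6 and 569 ± 61.5 CPM per kb, while ELANE stood at 81.3 ± 7.55. MS4A3, a membrane protein of granulocyte-monocyte progenitors, measured 361, 345 and 354 CPM. Other genes of the list had almost no counts. LTF (lactoferrin), LCN2 (lipocalin 2) and MMP8 (neutrophil collagenase), whose products are known from specific granules, were at 0 in all 3 libraries. The alpha-defensin genes DEFA1, DEFA3 and DEFA4, whose products are known from primary granules like those of AZU1 and CTSG, and CEACAM8 were also at 0. CAMP (cathelicidin) measured 0.153, 0.118 and 0.318 CPM. DEFA1 and DEFA3 are near-identical copies whose reads may have been lost in counting, so their 0 is uncertain, and this was not tested.

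Of 24 monocyte and macrophage genes 13 were expressed, which is 54.2% against 54.9% of all protein-coding genes. Besides LYZ, the highest in CPM per kb were TYROBP, the adaptor of activating myeloid receptors, with 173, and CCR2, the receptor for the chemokine CCL2, with 94.5. CCR2 was nearly the same in all libraries at 352, 352 and 354 CPM. CSF1R, the macrophage growth factor receptor, measured 63.1, 59.5 and 62.1 CPM, and TLR2, a sensor of bacterial lipopeptides, measured 58.9, 53.7 and 61.5 CPM. Also expressed were CTSS (cathepsin S) at 61.0, 58.5 and 62.9 CPM, the Fc receptor genes FCER1G at 36.7, 39.3 and 33.1 CPM and FCGR1A at 13.1, 11.1 and 13.1 CPM, TLR4 at 23.8, 24.5 and 25.2 CPM and CX3CR1 at 6.24, 6.58 and 6.26 CPM. Other members were near or at 0. FCN1 (ficolin), CD163 (haemoglobin scavenger receptor) and S100A12 had no count, MRC1, MSR1, VCAN and FCGR3A had at most 0.118 CPM in any library, and S100A8 measured 0.716, 0.513 and 0.531 CPM against 1.33, 1.58 and 1.80 CPM for its partner S100A9. CD68 measured 0.614, 0.591 and 0.902 CPM, but 81.7% of its exon length also belongs to an overlapping gene on the same strand, so its level cannot be read from these counts.

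Stem and progenitor genes gave 7 expressed of 18 (38.9%, against 54.9% of all protein-coding genes). FLT3 and LMO2, a scaffold of haematopoietic transcription factors, led on the per-length scale with 92.5 and 77.7 CPM per kb, and KIT, the stem cell factor receptor, measured 39.7, 40.7 and 41.3 CPM. CD34, PROM1 (CD133), MECOM and SPINK2 had no count in any library. Dendritic cell genes gave 8 of 13 expressed (61.5%, near the 54.9% of all protein-coding genes). They were led by the transcription factor IRF8 with 516, 543 and 514 CPM. IRF8 also serves monocytes, and the markers CLEC9A, XCR1 and CLEC4C, which define dendritic subsets, were all at 0.

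Markers of other lineages were largely missing. Among T and NK cell genes 3 of 19 were expressed: CD4 at 278, 292 and 273 CPM, NKG7 at 42.8, 50.6 and 44.8 CPM and NCAM1 at 1.74, 1.66 and 1.33 CPM. CD4 is also carried by monocytes, and the T cell receptor component CD3E had no count while CD3D had 0.0394 CPM in 1 library only. Among B cell genes 2 of 12 were expressed, PAX5 at 4.04, 3.71 and 3.66 CPM and IGLL1 at 2.51, 3.79 and 3.40 CPM, with MS4A1 (CD20) and EBF1 at 0. Of 14 erythroid genes only TFRC, the transferrin receptor of dividing cells, and EPOR were expressed, and all 5 globin genes on the list were at 0. The 0 of HBA1, HBA2, HBG1 and HBG2 is uncertain because reads of such similar copies can be lost in counting. HBG2 also shares 57.3% of its exon length with other genes on the same strand. Of 12 megakaryocyte genes FLI1 and ITGA2B were expressed, and PF4 and PPBP were at 0. Of 10 mast cell, basophil and eosinophil genes CCR3 and PRG2 were expressed, and neither exceeded 2.48 CPM in a library. Of 14 stromal, endothelial and epithelial genes PECAM1 (134, 134 and 134 CPM), KRT18 and KRT8 were expressed, with EPCAM, KDR and the collagen genes COL1A2 and COL3A1 at 0. The summed level of a cell type list ran over the libraries from 5944 to 6224 CPM for the granule list, from 1396 to 1440 CPM for the monocyte list and from 321 to 346 CPM for the T and NK cell list. It ran from 844 to 887 CPM for the erythroid list and from 744 to 770 CPM for the stem and progenitor list. The dendritic list had 649 to 685 CPM, the stromal list 151 to 152 CPM and the megakaryocyte list 117 to 126 CPM. The B cell list had 8.39 to 9.54 CPM and the mast cell list 5.57 to 6.23 CPM. Single genes made up much of some sums, with mean levels of 3355 CPM for SRGN (granule list) and 842 CPM for TFRC (erythroid list). The sums therefore do not rank lineages.

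**Figure D1:**
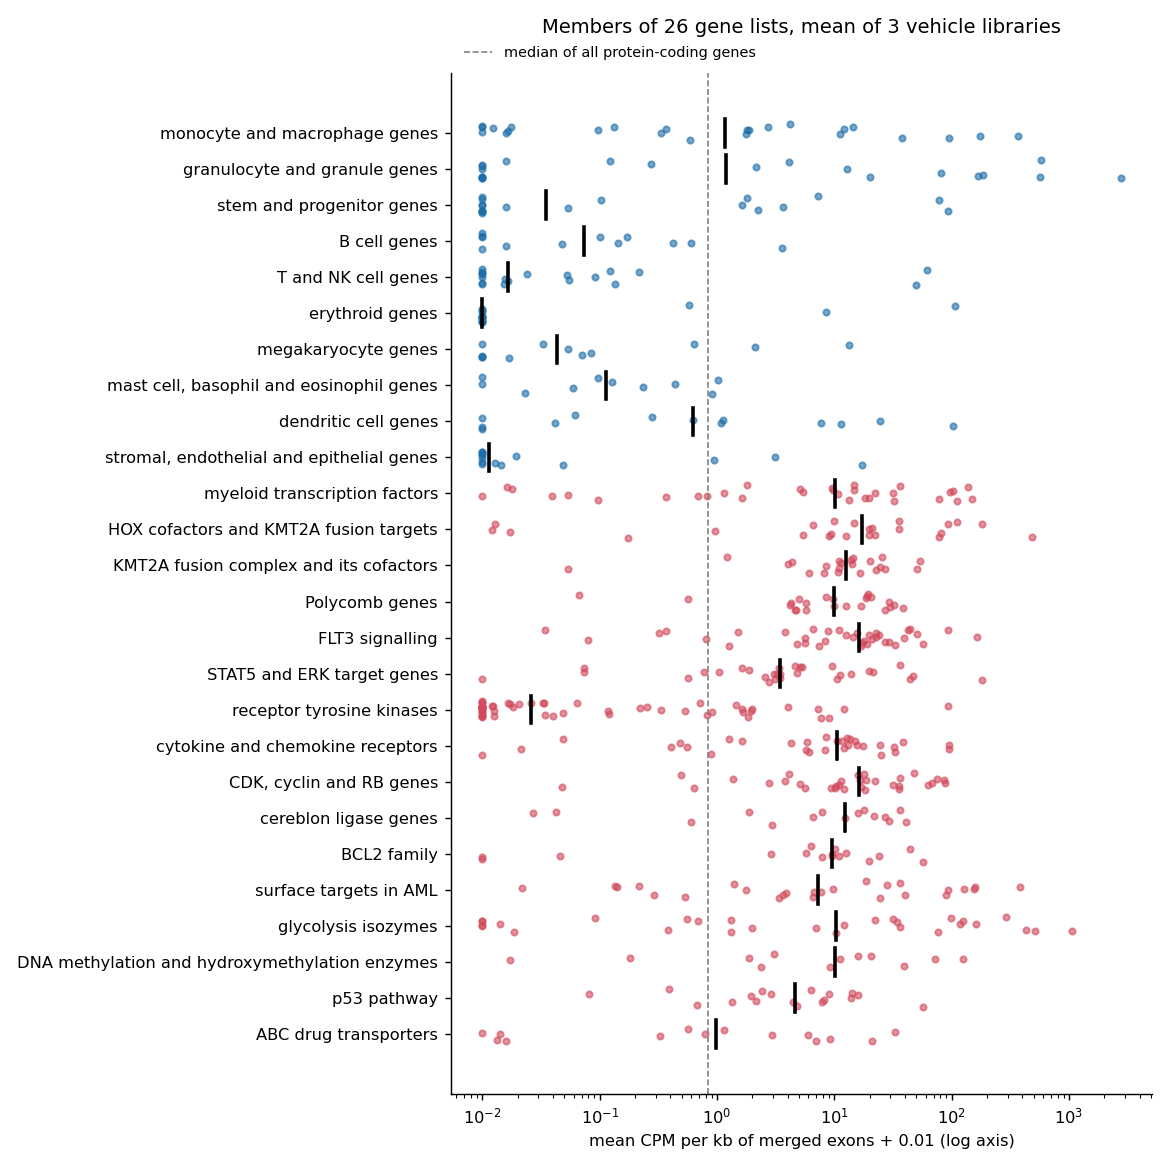
Each point is 1 gene of a list, at its mean level over the 3 vehicle libraries in CPM per kb of merged exons plus 0.01 on a log axis; black bars are list medians, blue lists are cell type markers and red lists are programs. Medians of the B cell, T and NK cell, erythroid, megakaryocyte, mast cell and stromal lists run up to 0.102 CPM per kb. Those of most program lists lie above the dashed median of all protein-coding genes, 0.819 CPM per kb.

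The transcription factors of the myeloid line were mostly present, with 26 of 32 expressed and a list median of 10.2 CPM per kb, against 0.819 over all protein-coding genes. SPI1 stood highest with 149 ± 10.1 CPM per kb, followed by CEBPA, the granulocyte-monocyte fate factor, with 138 ± 11.7, and by MYB, a factor of proliferating progenitors, with 110 ± 4.04. The ranges of SPI1 and CEBPA over the 3 libraries overlapped on this scale. CEBPA measured 348, 399 and 343 CPM, and GFI1, a repressor in granulocyte progenitors, measured 311, 318 and 323 CPM. The C/EBP factor of late granulocytes, CEBPE, measured only 1.995, 1.77 and 1.54 CPM. EGR2 and the erythroid and megakaryocytic regulators TAL1 and GFI1B were below threshold, ERG likewise, and GATA1 had no count. RUNX1 (341, 331 and 362 CPM), RUNX2 (120, 114 and 125 CPM) and RUNX3 (137, 150 and 144 CPM) were all expressed together with their partner CBFB.

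Along the HOXA cluster the levels changed abruptly between neighbours. HOXA9 measured 47.2, 45.0 and 45.8 CPM and HOXA10 measured 71.8, 75.3 and 70.5 CPM, with HOXA11 next at 5.32, 6.31 and 5.57 CPM. The 6 genes from HOXA2 to HOXA7 together had 14 counts in the 3 libraries, against 7936 counts for the 3 genes from HOXA9 to HOXA11. Per length HOXA9 and HOXA10 stood at 15.2 ± 0.357 and 19.6 ± 0.671 CPM per kb. HOXA7 (chr7:27153716-27157936) and HOXA9 (chr7:27162435-27175180) are 4.498 kb apart in the annotation. HOXA13 was below threshold. The antisense transcript HOXA10-AS, whose exons overlap HOXA9 and HOXA10, measured 8.34, 10.4 and 10.3 CPM, while HOXA-AS2, HOXA-AS3 and HOTTIP were at or near 0. Because the strand setting of the counting is not given in the sources used here, reads of these overlapping genes may not be fully separated.

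The other HOX clusters were low. In HOXB 4 of 10 genes were expressed, HOXB4 at 8.85, 8.32 and 7.91 CPM, HOXB3 at 2.97, 2.88 and 3.61 CPM, HOXB6 at 2.40, 3.55 and 3.13 CPM and HOXB7 at 1.94, 1.97 and 2.18 CPM. In HOXC 1 of 9 was expressed, HOXC6 at 4.04, 3.67 and 4.62 CPM. In HOXD none of 9 was expressed, and the whole cluster had 1 count. The group 9 paralogs of HOXA9 were thus silent, with HOXB9 and HOXD9 at 0 and HOXC9 at 0.0512, 0.0789 and 0.0531 CPM. HOXC5, HOXD3 and HOXD4 share at least 50% of their exon length with another gene on the same strand, so their 0 is not informative.

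**Figure D2:**
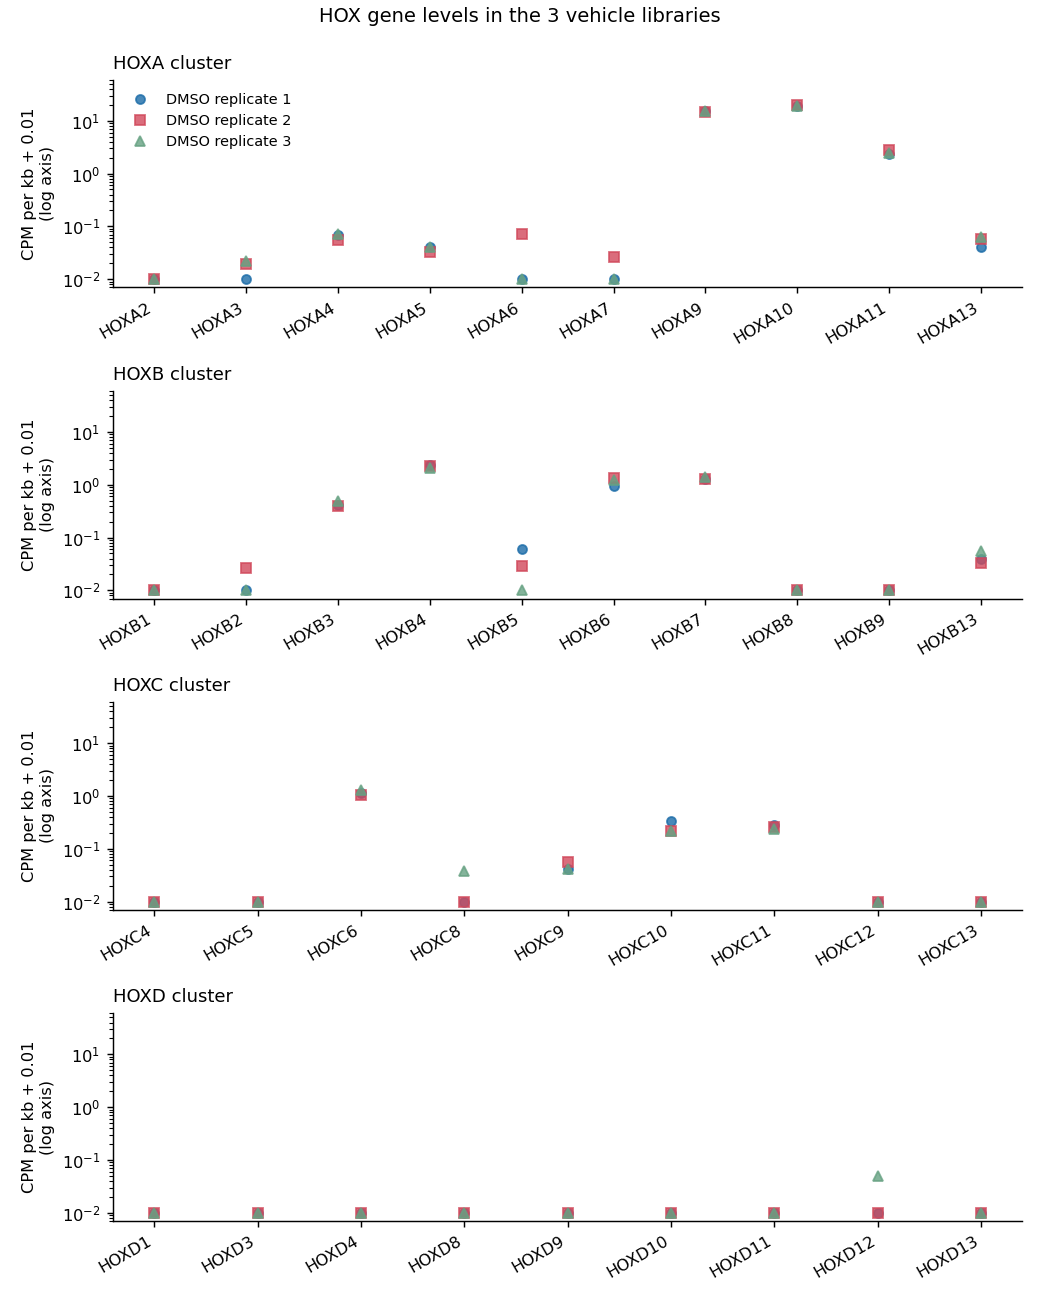
Levels of HOX genes in CPM per kb plus 0.01 on a log axis, with 1 panel per cluster and genes in paralog order; symbols are the 3 vehicle libraries. HOXA9 and HOXA10 stand near 15 and 20 CPM per kb in every library, while HOXA2 to HOXA7 and the HOXD cluster lie at or near the bottom.

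Of 24 HOX cofactors and genes known as targets of KMT2A fusions, 20 were expressed, with a list median of 17.1 CPM per kb (26.3 with the length of the longest transcript in place of merged exons). MEIS1, the cofactor that cooperates with HOXA9, measured 104, 106 and 115 CPM, and PBX3 measured 96.0, 96.4 and 93.8 CPM. MYC measured 522, 573 and 527 CPM, BCL2 measured 230, 230 and 240 CPM and CDK6, the kinase that the series addresses, measured 438, 412 and 457 CPM. Replicate 2 was the lowest for CDK6 and the highest for MYC. Among the members below threshold, ADGRG1, an adhesion receptor, had at most 0.106 CPM in any library, and EYA1 had counts in 1 library only.

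The list of the KMT2A fusion complex and its cofactors had 21 of 22 genes expressed (95.5%, against 54.9% of all protein-coding genes). It is a broad list that also holds KMT2B and KMT2D, so the count is not of fusion partners alone. KMT2A itself measured 121, 121 and 137 CPM and AFF1 measured 151, 150 and 164 CPM, and counts per gene do not separate the fusion transcript from the normal alleles. DOT1L, the H3K79 methyltransferase, measured 247, 255 and 259 CPM, and MEN1, which encodes the menin cofactor, measured 59.3, 64.8 and 56.0 CPM. The homologous YEATS-domain genes differed. MLLT1 (ENL) measured 243, 249 and 234 CPM, but MLLT3 (AF9) measured only 0.256, 0.434 and 0.371 CPM and was the 1 member below threshold. Polycomb genes, which encode the opposing repressive complexes, were expressed in 22 of 23 cases. EZH2 measured 89.1, 84.2 and 86.6 CPM and its homolog EZH1 33.7, 29.1 and 33.0 CPM, and PCGF2, which overlaps a higher gene, was the exception with at most 0.318 CPM.

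FLT3 (chr13:28003274-28100592) measured 383, 372 and 399 CPM. It ranked 407 among protein-coding genes in CPM per kb, within the top 2.06%. Of 55 receptor tyrosine kinase genes 18 were expressed (32.7%, against 54.9% of all protein-coding genes), and 19 had no count. With 92.5 ± 3.28 CPM per kb FLT3 stood far above the next receptors, CSF1R with 11.9 ± 0.366, LTK with 8.96, INSR, the insulin receptor, with 7.74 ± 0.422, and KIT with 7.30 ± 0.149 CPM per kb. LTK is a kinase related to ALK, and ALK had 1 count in all 3 libraries together. EGFR, MET, PDGFRA, KDR, FGFR2, ROR1 and ROS1 had no count. AXL measured 2.86, 2.92 and 2.28 CPM. Several kinases of this list overlap a higher gene on the opposite strand, ERBB2, EPHA1 and EPHB4 among them, and their levels are uncertain for that reason.

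**Figure D3:**
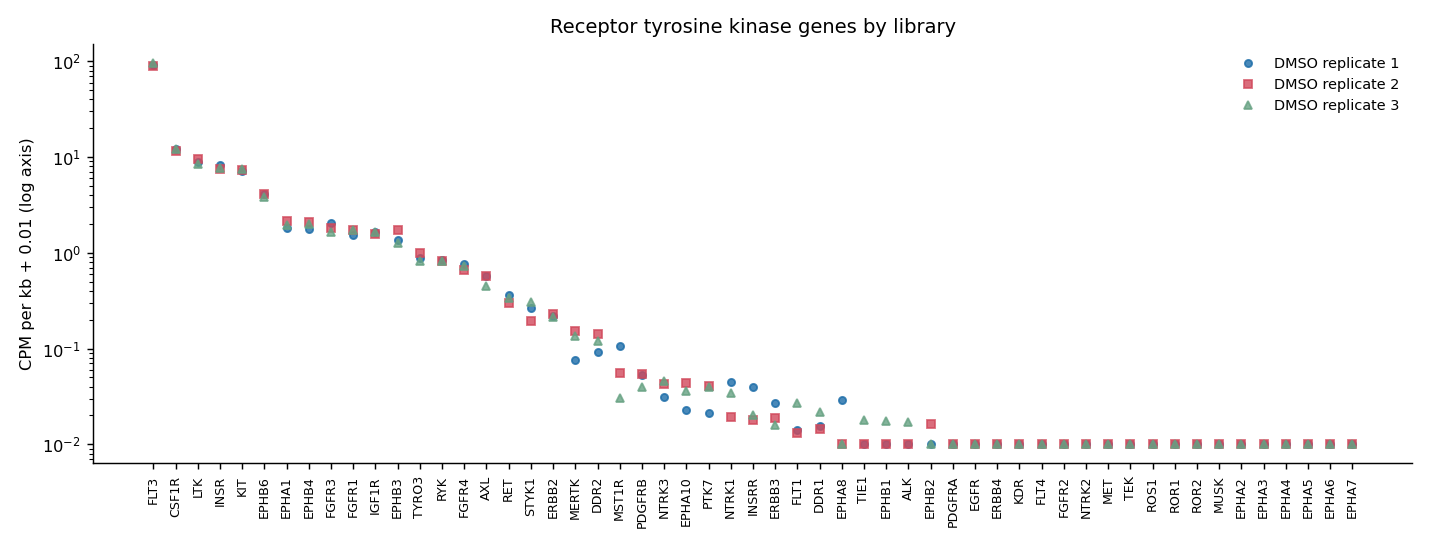
Levels of 55 receptor tyrosine kinase genes in CPM per kb plus 0.01 on a log axis, sorted by mean; symbols are the 3 vehicle libraries. FLT3 lies above 80 CPM per kb in every library, no other gene exceeds 15, and the 19 genes at the right had no count.

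Genes that carry the FLT3 signal were almost all expressed, 36 of 38, with a list median of 16.2 CPM per kb. The exceptions were FLT3LG, which encodes the receptor's ligand, and the adaptor GAB1. FLT3LG measured 0.153, 0 and 0.0531 CPM, but 37.5% of its exon length is shared with other genes on the same strand. GAB1 measured 0.665, 0.631 and 0.796 CPM. The related adaptor GAB2 measured 148, 153 and 157 CPM. GRB2, the adaptor that links receptors to RAS, was the highest of the list with 163 CPM per kb. STAT5B measured 79.7, 81.6 and 82.1 CPM and STAT5A 44.2, 41.8 and 41.9 CPM. PIK3CD, the leukocyte PI3K catalytic subunit, measured 319, 333 and 318 CPM, and PIK3CA, the widely used one, measured 12.7, 11.3 and 11.8 CPM. Per length these were 51.1 and 1.26 CPM per kb. For JAK kinases the order in CPM per kb was TYK2 with 44.2, JAK1 with 18.9, JAK2 with 4.84 and JAK3 with 1.51. SRC-family and related kinases of myeloid cells were expressed too, FES at 42.1, SYK at 39.1 and LYN at 21.0 CPM per kb.

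Known target genes of STAT5 and ERK were expressed in 26 of 30 cases, with a median of 3.44 CPM per kb. PIM1, a survival kinase, measured 140, 142 and 134 CPM, and CISH, a STAT5 feedback inhibitor, measured 56.0, 58.6 and 55.1 CPM, beside a higher gene that overlaps it on the opposite strand. The ERK phosphatase DUSP6 measured 48.4, 51.1 and 47.2 CPM, and MCL1, a survival gene of the BCL2 family, measured 192, 189 and 200.1 CPM. These 4 genes were stable across libraries. Feedback genes of the SPRY and SPRED families were uneven. SPRY2 measured 10.2, 11.0 and 10.4 CPM and SPRED2 measured 27.8, 26.5 and 26.8 CPM, whereas SPRY1 and SPRY4 were below threshold and SPRED1 had no count. IER3, with 0.972, 1.14 and 1.01 CPM, missed the threshold through replicate 1 alone, and without that library 27 genes of the list were expressed.

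Cytokine and chemokine receptors were expressed in 28 of 31 cases. In CPM per kb the highest were CXCR4, the receptor for CXCL12, with 95.1 and CCR2 with 94.5, and CCR1 followed with 38.5. The common beta chain CSF2RB and the alpha chains IL3RA (CD123) and CSF2RA, which form the receptors for IL-3 and GM-CSF, measured 11.6, 24.5 and 6.07 CPM per kb. CCR7 and IL1R1 were below threshold.

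The cell cycle genes around the CDK6 kinase were expressed in 31 of 32 cases. CDK4 stood at 85.3 CPM per kb and CDK6 at 35.5 ± 1.82 CPM per kb. In CPM, CDK4 measured 269, 280 and 261 in replicates 1 to 3. Of the D cyclins, CCND3 led with 36.0 CPM per kb, followed by CCND2 with 5.11 and CCND1 with 2.77. RB1 measured 68.1, 69.8 and 72.3 CPM, and among CDK inhibitor genes CDKN1B (p27) measured 130, 141 and 129 CPM, CDKN2C (p18) 58.6, 65.1 and 59.4 CPM and CDKN2A 47.6, 54.0 and 46.9 CPM. CDKN2B, next to CDKN2A in the genome, measured 2.61, 1.54 and 1.70 CPM. CCNA1, a cyclin A known from the germ line and from myeloid leukaemia, measured 53.5, 55.8 and 50.1 CPM. E2F5 was below threshold, and its exons overlap those of a higher gene.

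Cereblon is the substrate receptor that phthalimide conjugates engage. CRBN, whose exons overlap a gene of 39.9 CPM on the opposite strand, measured 24.4, 22.5 and 24.5 CPM, or 2.95 ± 0.138 CPM per kb, which put it at 39.8% from the top of protein-coding genes. Its ligase partners were higher on the per-length scale, DDB1 with 27.0 ± 0.569, CUL4A with 17.7 and RBX1 with 15.8 CPM per kb. Of the Ikaros-family substrates, IKZF1 measured 390, 397 and 403 CPM, while IKZF2 and IKZF3 reached at most 0.69 CPM in a library. GSPT1, a translation termination factor and another known substrate, measured 333, 321 and 332 CPM. SALL4, a developmental zinc-finger factor, was low, with 4.45, 2.25 and 3.55 CPM, and lowest in replicate 2.

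Genes of the BCL2 family were expressed in 13 of 16 cases. Among survival members MCL1 stood at 44.4, BCL2 at 19.8 and BCL2L1 (BCL-XL) at 9.56 CPM per kb, and BCL2A1 had counts in 1 library only. Among effectors BAX stood at 56.8 and BAK1 at 12.4 CPM per kb, with BOK at 0. Of the BH3-only genes BID, BMF, BCL2L11 (BIM), BAD, BIK, PMAIP1 (NOXA) and BBC3 (PUMA) were expressed and HRK had no count. In the p53 pathway 17 of 18 genes were expressed, CDKN1A (p21) at 46.6, 51.8 and 47.4 CPM, with GDF15 below threshold.

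Surface antigens under study as targets in AML were expressed in 22 of 26 cases. HLA class I genes were high, with HLA-B at 382 CPM per kb, and the sequences of these genes are similar enough that reads may be split between them. LILRB4, an inhibitory receptor of monocytic AML, measured 262, 261 and 243 CPM. CD33 and CD44 stood at 28.2 and 36.3 CPM per kb. CLEC12A (CLL-1) was low at 1.59, 1.73 and 1.75 CPM, and HAVCR2 (TIM-3), at 1.13, 0.946 and 1.11 CPM, missed the threshold in replicate 2 only. CD274 (PD-L1) had no more than 0.0531 CPM in any library. HLA-DRA was expressed at 114, 119 and 109 CPM together with the class II regulator CIITA at 35.7, 34.4 and 38.9 CPM.

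Of 29 glycolysis genes, which include isozymes of other tissues, 22 were expressed. ALDOA, which shares 42.3% of its exon length with another annotated gene on its strand, stood at 432 CPM per kb and ALDOC at 6.96. ENO1 stood at 517 CPM per kb, and ENO2 and ENO3 at 1.31 each, although ENO3 overlaps a gene of 906 CPM on the opposite strand, while GAPDH stood at 1056 and the sperm form GAPDHS had 1 count. Both lactate dehydrogenase subunits were present, LDHB with 293 and LDHA with 117 CPM per kb, although 33.4% of the LDHB exon length is shared with another annotated gene. PKM was expressed and the liver and red cell form PKLR was not. Among glucose transporters SLC2A1 stood at 36.0 CPM per kb and SLC2A3 at 0.674.

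Enzymes of DNA methylation were expressed in 11 of 12 cases. The maintenance enzyme DNMT1 measured 696, 698 and 704 CPM and the de novo enzymes DNMT3A and DNMT3B measured 35.7, 37.7 and 36.2 CPM and 11.2, 11.3 and 10.6 CPM. The TET dioxygenase TET3 measured 107, 114 and 116 CPM and TET2 31.3, 30.05 and 30.9 CPM, and TET1 was low at 1.995, 1.18 and 1.59 CPM. Among ABC transporters 10 of 14 were expressed. ABCC1 (MRP1) measured 67.8, 70.9 and 68.7 CPM, whereas the classic drug efflux genes ABCB1 (P-glycoprotein) and ABCG2 (BCRP) had at most 0.0531 CPM in any library.

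In some gene families no member was expressed. None of 380 olfactory receptor genes was expressed and 373 had no count. The 24 bitter taste receptor genes, the 94 keratin-associated protein genes and the 39 beta-defensin genes with these symbols also had no expressed member, though 12 of the taste receptor genes had counts, up to 0.681 CPM for TAS2R14. Of 55 keratin genes 3 were expressed, KRT10 at 18.1, 20.7 and 19.4 CPM, KRT18 at 10.7, 9.82 and 9.76 CPM and KRT8 at 6.70, 6.39 and 6.05 CPM. KRT8 and KRT18 form the keratin pair of simple epithelia. Of 65 protocadherin genes 4 were expressed, all in the gamma cluster and led by PCDHGB2 with 7.37, 7.45 and 8.44 CPM. Of 13 SERPINB genes, which encode intracellular protease inhibitors, 3 were expressed. SERPINB8 measured 120, 124 and 123 CPM, SERPINB1, an inhibitor of neutrophil serine proteases, measured 88.6, 90.6 and 91.0 CPM, and SERPINB6, which inhibits cathepsin G, measured 78.3, 74.5 and 73.1 CPM. The share of protein-coding genes expressed ran from 41.8% on the X chromosome and 42.2% on chromosome 21 to 66.2% on chromosome 22. Protein-coding genes held 98.4% of all counts, and 247 of 7302 lincRNA genes were expressed (3.38%).

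Promoter sequences of 15269 protein-coding genes, 300 bases from 250 before to 50 after the start site, were compared across levels in CPM, not divided by length. The CpG observed/expected ratio, which is 1 where CG is as frequent as the base composition predicts, had a median of 0.350 for 3812 genes with no count. It was 0.634 for 2585 genes with counts but not expressed, 0.800 for those expressed under 10 CPM, 0.856 from 10 to 100 CPM and 0.886 for 2057 genes at 100 CPM or more. Searched on both strands, the hexamer TATAAA was found in 18.97% of promoters of genes with no count and in 5.20% of those at 100 CPM or more, against 9.52% of all. The heptamer CCGGAAG, of the ETS type, went the other way, with 3.31% and 22.8%, against 14.4% of all. The heptamer GAGGAAG, of the PU.1 type, was found at a similar share in every level class, from 13.6% to 15.7%. A match is a description of the letters in the window and not a bound site. Promoter GC content moved with level too, from a median of 54.7% without a count to 65.3% at 10 to 100 CPM, and its part in the motif shares was not tested.

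Among all 8872 expressed genes with a promoter in the table, 14.9% had a ratio of 0.6 or less. Of 7 expressed granule genes with a promoter in the table, 6 had such a ratio, and so did 9 of 11 expressed monocyte genes, with medians of 0.276 and 0.314. It was also frequent among cytokine and chemokine receptors (12 of 24, median 0.528), surface targets (8 of 16, median 0.539) and FLT3 signalling genes (9 of 27). AZU1, PRTN3 and CTSG, whose upstream stretches are printed above, had ratios of 0.276, 0.273 and 0.143. CTSC, the cathepsin that activates granule proteases, was the exception among the granule genes with 1.03. The expressed genes of the fusion complex and cofactor list and of Polycomb had medians of 0.931 and 0.972, and those of the myeloid transcription factors 0.894, but 6 of 20 of the latter were at 0.6 or less, among them IRF8 with 0.130, RUNX2 with 0.147 and RUNX3 with 0.460. FLT3 had a ratio of 0.830. In the HOXA cluster the ratio did not separate silent from expressed genes, with 0.906 for the silent HOXA7, 1.06 for the silent HOXA6, 1.27 for HOXA9 and 0.875 for HOXA10. HOXA9 and HOXA10 held the TATAAA hexamer, and so did the silent HOXA3.

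**Figure D4:**
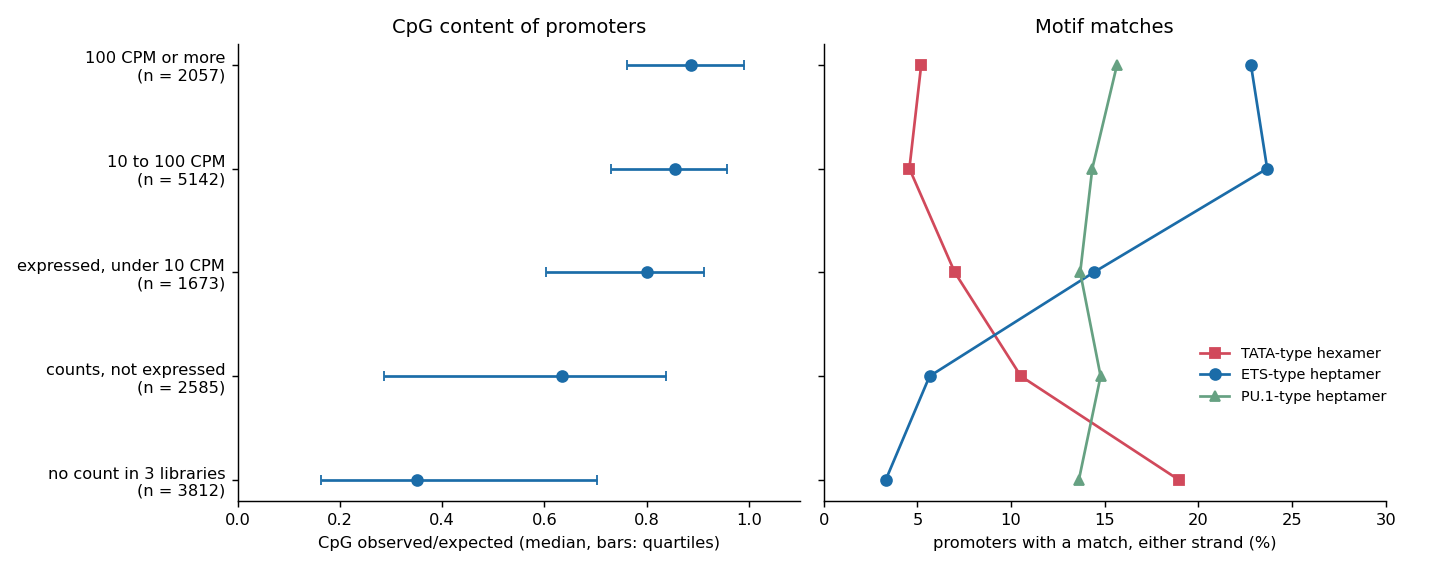
Left, CpG observed/expected ratio of promoters (points are medians, bars run from the lower to the upper quartile) by level class of the gene in the vehicle libraries, in CPM not divided by length. Right, percentage of promoters with a match to each of 3 motifs in the same classes; the ratio and the ETS-type motif are higher and the TATA-type motif is less frequent in the expressed classes.

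The spread between the 3 libraries was small, and most of it came with replicate 2. The common biological coefficient of variation, edgeR's estimate of the spread beyond counting error, was 4.64% over 12981 genes, and it was 2.17% without replicate 2. Among expressed protein-coding genes the median coefficient of variation was 10.1% at 1 to 10 CPM, where counting error is largest, and 4.67% at 10 to 100 CPM, 3.36% at 100 to 1000 CPM and 4.26% at 1000 CPM or more. A chi-square test of the 3 counts against the scaled library sizes (Benjamini-Hochberg adjusted over 13610 genes) called 2636 genes as varying beyond counting error (19.4%). Without replicate 2 it called 193 of 13495 and without replicate 3 1746 of 13700. The chi-square per degree of freedom was 1.82 between replicates 1 and 3, 5.87 between 1 and 2 and 8.91 between 2 and 3, so no pair of libraries agreed within sampling noise and none was counted as a duplicate.

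Replicate 2 differed in the same direction for whole classes of genes. Its log2 ratio to the mean of the other 2 libraries (0.5 CPM added) was below 0 for 15 of 15 mitochondrially encoded genes, with a median of -0.44, and mitochondrial genes took 2.43% of its counts against 3.20% and 3.45% in replicates 1 and 3. MT-ND4, a complex I subunit, measured 5217, 3735 and 5822 CPM. The nuclear-retained long RNAs MALAT1 (132, 89.1 and 150 CPM) and NEAT1 (196, 137 and 214 CPM) were lower in replicate 2. So were 34 of 45 lincRNA genes (75.6%), against 48.9% of all genes at 10 CPM or more. Ribosomal protein genes had a median log2 ratio of 0.11 in replicate 2 and of -0.10 in replicate 3. In replicate 3, 68 of 71 were below the other libraries (95.8%), against 52.8% of all genes at 10 CPM or more. Each ratio is taken against the mean of the other 2 libraries, so a high value in a library lowers the ratios of the others. The ratios of replicates 2 and 3 are therefore not independent. The highest replicate 2 ratio belonged to MIF, a cytokine gene, with 40.3, 59.1 and 40.6 CPM. Transcript GC content moved with the ratio. Across 8893 genes the correlation of the replicate 2 ratio with GC was r = 0.58 and with log2 transcript length r = -0.33. For the replicate 3 ratio, which is not independent of it, the values were r = -0.47 and 0.36, and all genes share the same 3 libraries. Genes were put in 10 classes of like size by GC. The median replicate 2 ratio ran from -0.10 in the class with the lowest GC to 0.13 in that with the highest. These values were small in absolute size, and 98.5% of genes at 10 CPM or more were within 1.25-fold of the other libraries. The part of GC content, length or depth in the difference was not tested.

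**Figure D5:**
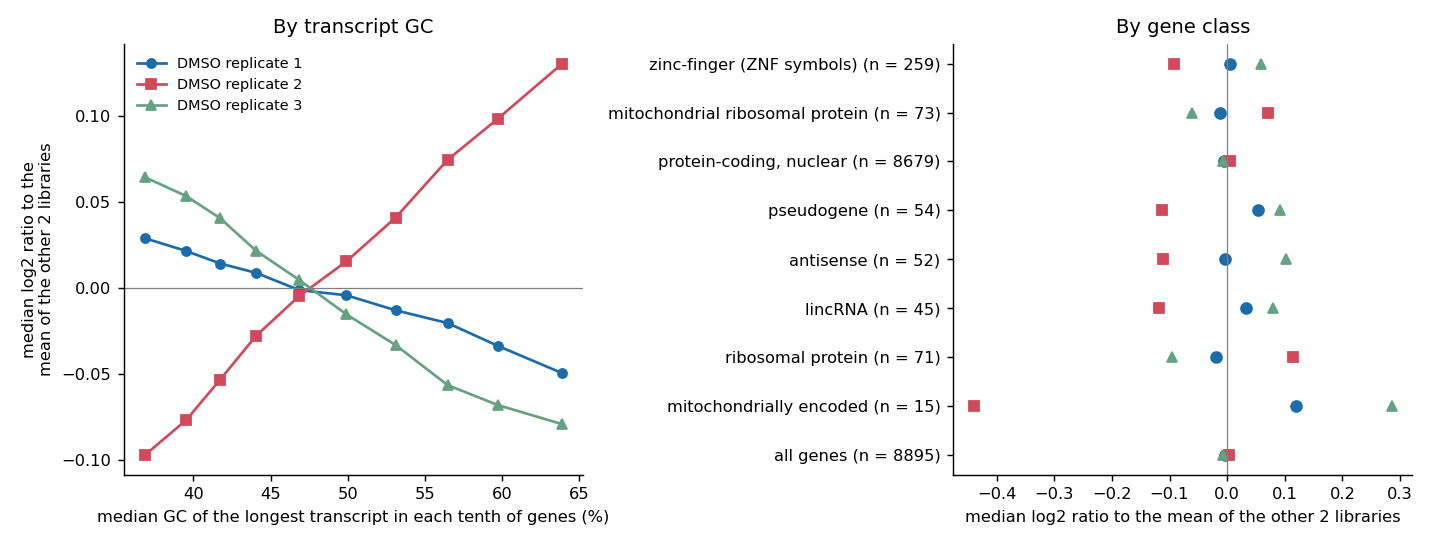
Median log2 ratio of each vehicle library to the mean of the other 2, over genes at 10 CPM or more, by 10 classes of transcript GC content (left) and by gene class (right). Replicate 2 rises with GC from -0.10 to 0.13 while replicates 1 and 3 fall, and mitochondrially encoded genes stand lowest in replicate 2.

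Genes of the programs above took part in this spread. Of the tested members, 13 of 21 HOX cofactors and fusion targets, 12 of 26 myeloid transcription factors, 10 of 21 genes of the fusion complex and cofactor list and 2 of 28 cytokine receptors varied beyond counting error, against 19.4% of all genes tested. The share among expressed protein-coding genes grows with depth, from 3.17% at 1 to 10 CPM to 48.8% at 100 to 1000 CPM, and the lists differ in level. HOXA9, at 47.2, 45.0 and 45.8 CPM, was not called, and CCNE2, a cyclin E gene with 46.4, 41.0 and 46.3 CPM, was. Of the 563 genes in the lists and HOX clusters, 86 overlap exons of another expressed gene and 35 of these overlap a higher one. Among 8 that share 50% or more of their exons with a gene on the same strand, 6 were not expressed: CD68, HBG2, ITGB3, HOXC5, HOXD3 and HOXD4.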

How the data were processed

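Polyadenylated RNA of MV4-11 cells was sequenced from TruSeq Stranded mRNA libraries, per the labels' protocols. What the authors deposited are raw counts for each Ensembl gene. Per the submitters' processing notes the authors trimmed reads with Trimmomatic 0.36, aligned them to hg38 with STAR 2.5.2b and counted them with HTSeq. Which annotation release, HTSeq version and strand setting they used is not given in the sources used here. The 3 vehicle columns were used and 9 columns were left out.

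GENCODE 29 named 57447 of 58051 genes, and 604 unnamed genes held under 0.03% of the counts. CPM used edgeR 4.0.16 TMM factors in R 4.3.3, and lengths were merged exons. The coefficient of variation came from estimateDisp with an intercept only after filterByExpr. The chi-square test used genes with a mean count of 10 or more and an adjusted p under 0.05, in Python 3.11.15 with scipy 1.17.1. Both were tested on simulated data. Promoters were matched by symbol and chromosome for 15269 of 19737 protein-coding genes.

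Named genes were the 30 highest in CPM and in CPM per kb, the 15 highest and 15 lowest ratios of replicate 2, the HOX clusters, symbol families and members of 26 lists; EEF1A1 and the antisense transcripts were added after their values were seen. The members and lists were chosen with earlier results of these data known. Alternatives were other scalings, thresholds, length definitions and leaving out each library. DESeq2 1.42.0 gave size factors only. With 18764307 to 25539858 counts per library, 3 counts equal 0.118 to 0.159 CPM. Intervals and floors cover counting error only.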

Additional observations from a re-analysis of the deposited data

How the results depend on the processing

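The number of expressed genes was 12014 under all 3 scalings, 13027 with a minimum of 0.5 CPM, 11081 with 2 CPM, 12298 when 2 of 3 libraries sufficed, and 12076 to 12153 when a library was left out. The common coefficient of variation was 4.64%, 4.63% with library totals, 4.64% with DESeq2 size factors, 4.72% without a filter, and 2.17% to 6.01% when a library was left out, lowest without replicate 2. The 2636 genes varying beyond counting error became 2654 with library totals, 2623 with DESeq2 size factors, 2735 of 11046 with a mean count of 50 or more, 2267 of 24013 without a filter, and 193 to 2665 when a library was left out. The share of counts in the 100 highest genes moved from 17.9% to 16.3% without mitochondrially encoded genes, and was 17.9% to 18.0% when a library was left out. Of 624 gene levels, all stayed within 1 SD under the 2 other scalings, 3 moved further without replicate 2 and 2 without replicate 3. By fold, 29, 38 and 12 levels moved by over 1.5 times without replicates 1, 2 and 3, and none of these exceeded 0.393 CPM. So did 3 list medians without replicate 1 and 2 without replicate 2, none above 0.0161 CPM per kb. With the longest transcript as length, 23 of 27 list medians in CPM per kb moved, 4 of them by over 1.5 times and at most 1.96 times. Leaving out a library changed the expressed members of 4 lists by 1 gene each, to 3 of the mast cell list without replicate 3, 27 STAT5 and ERK targets and 19 receptor tyrosine kinases without replicate 1, and 23 surface targets without replicate 2. No paired analysis was possible because a single group was described and no groups were compared. Depth limits statements on genes below about 0.159 CPM, where 3 counts or fewer were seen in a library.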
